A study of Mus musculus with 12 samples.

Results

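A group of 10 genes of the necroptosis pathway was followed through 12 mouse liver libraries: Mlkl, Ripk1, Ripk3, Zbp1, Casp8, Fadd, Cflar, Tnfaip3, Cyld and Tnfrsf1a. They were chosen by symbol and make up 10 of the 51912 gene identifiers in the deposited table. The livers came from Mlkl-/- and wild-type mice, each given either fat-rich chow (HFD, in which lipid makes up 59% of the energy and fat content is 36%) or normal chow (ND), with 3 mice in each of the 4 groups. Feeding began at 8 to 9 weeks of age and lasted 25 weeks by the sample labels, whereas the series text gives 16 to 25 weeks. Every animal was picked for having near-mean organ weights. The labels name no other allele or agent, and they do not state whether Mlkl was deleted in all cells, the strain, the sex or where in Mlkl the deletion lies.

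Necroptosis is a lytic form of programmed cell death. Ligand binding to a death receptor such as TNFR1 lets the kinases RIPK1 and RIPK3 assemble, RIPK3 phosphorylates the pseudokinase MLKL, and MLKL then moves to the plasma membrane and breaks it. Caspase-8, held in a complex with FADD and cFLIP (encoded by Cflar), cleaves the kinases and blocks this route, while the ubiquitin editors A20 (encoded by Tnfaip3) and CYLD set how long the receptor complex signals to NF-kB before it turns to death. ZBP1 is a sensor of Z-form nucleic acids that can engage RIPK3 without a death receptor. In liver, Mlkl RNA is known in hepatocytes, whereas hepatocytes are known to hold little RIPK3, which is found mainly in macrophages and other non-parenchymal cells.

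Reads were taken from the 3' ends of polyadenylated RNA, so a count stands for the end of a transcript. Library totals ran from 19435391 to 32120426 counts, and values are given as counts or as CPM (the count scaled to a common library size, after TMM factors). In these bulk samples, fewer cells of a type and less RNA per cell cannot be told apart. All 10 hepatocyte markers of the list used here were measured in every library. At 8 loci (Mir6236, Gm23935, Gm24270, Gm24187, Gm25911, Gm24245, Gm15564 and Lars2), 6 libraries held 3484 to 9239 summed raw CPM, namely all 3 Mlkl-/- HFD libraries, wild-type HFD replicates 2 and 3 and Mlkl-/- ND replicate 1, and the other 6 held 378 to 656. The sample titles also carry a code of unstated meaning (25 or 29 on HFD, 23 or 27 on ND) that divides each group 2 to 1.

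All 10 genes passed the filter on low counts. A gene is called below when its Benjamini-Hochberg adjusted p from edgeR's quasi-likelihood test, taken over all 18098 genes tested, was under 0.05. On HFD, 1 of the 10 genes was called between Mlkl-/- and wild-type livers (Mlkl, lower), against 0.0276% of all genes in either direction and 0.0221% in the lower one. Mlkl is the deleted gene, so its call is no result about the rest of the pathway. In this fit edgeR called no other member between genotypes on either diet. On ND, edgeR called 0 of the 10, against 0.00553% of all genes. There 1 of the 10 had an unadjusted p under 0.05 (5.51% of all genes), DESeq2 called 1 and limma-voom called 0. In wild-type livers, 1 of the 10 was called between HFD and ND (Tnfaip3, higher), against 4.23% of all genes called in either direction and 2.02% called higher. In Mlkl-/- livers, 0 of the 10 were called between diets by edgeR, DESeq2 and limma-voom, against 0.359% of all genes called by edgeR (0.21% higher, 0.149% lower). In that comparison 1 of the 10 had an unadjusted p under 0.05, against 13.6% of all genes. Groups of 3 livers that do not overlap at all were also counted. Between genotypes this held on HFD for 3 of the 10 genes (Ripk1 higher, Mlkl and Tnfaip3 lower in Mlkl-/-, against 10.6% and 10.8% of all genes) and on ND for 1 (Mlkl, lower, against 4.93% higher and 5.56% lower among all genes). Between diets it held for 3 of the 10 in wild-type livers (Mlkl, Fadd and Tnfaip3, all higher, against 14% higher and 15.2% lower) and for 0 in Mlkl-/- livers (against 8.02% higher and 7.49% lower).

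**Figure D1:**
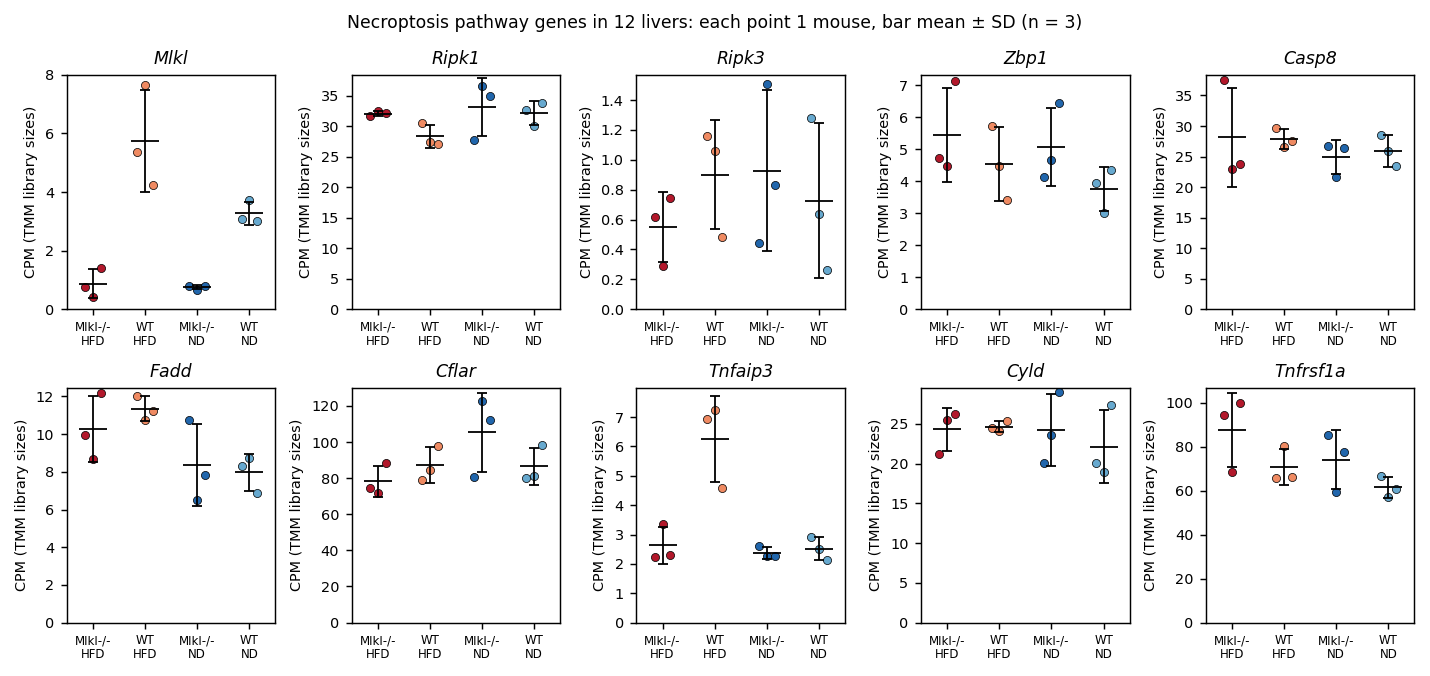
CPM (y axis, TMM library sizes, from 0) of the 10 genes in each of the 12 livers, by group on the x axis; a point is 1 mouse and the bars are the mean and SD of 3. Mlkl lies at 0.433 to 1.40 CPM in Mlkl-/- livers and at 3.01 to 7.65 CPM in wild-type livers, and Tnfaip3 lies at 4.58 to 7.25 CPM in wild-type HFD livers and at 2.13 to 3.37 CPM in the other 9.

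The effector and deleted gene, Mlkl (ENSMUSG00000012519, mm10 chromosome 8, 111311797 to 111338177, minus strand, 13 merged exons), was counted 16, 9 and 34 times in Mlkl-/- HFD livers, against 134, 252 and 88 times in wild-type HFD livers. On ND its counts were 16, 15 and 20 in Mlkl-/- livers, against 72, 76 and 92 in wild-type livers. Every Mlkl-/- library was below every wild-type library, on both diets. Mlkl averaged 0.866 ± 0.492 CPM in Mlkl-/- HFD livers and 5.75 ± 1.74 CPM in wild-type HFD livers (SD, n = 3 each), a log2 fold change of -2.71 ± 0.36 (SE; adjusted p = 0.0166). Mlkl averaged 0.747 ± 0.0712 CPM in Mlkl-/- ND livers and 3.27 ± 0.398 CPM in wild-type ND livers, and the log2 fold change of -2.12 ± 0.37 was not called (adjusted p = 0.144, 95% interval -2.90 to -1.34). Averaged over both diets, the log2 fold change was -2.42 ± 0.26 (adjusted p = 0.00202), called along with 0.0166% of all genes.

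Mlkl reads did not vanish in Mlkl-/- livers. Their mean level was 15.1% of the wild-type mean on HFD, with single libraries at 7.53% to 24.4%, and 22.8% of it on ND, with single libraries at 20.3% to 24.1%. A 3' read that lies outside a deleted stretch checks nothing, and the position of the deletion is not known here, so these counts cannot be read as RNA of an intact gene. No annotated exon of a neighbouring gene shares bases with Mlkl exons, and the pseudogene Gm45712 inside it had 0 counts in all libraries. The Mlkl call on HFD was lost without wild-type HFD replicate 1 (adjusted p = 0.129) or 2 (0.153), without Mlkl-/- HFD replicate 1 (0.116) or 2 (0.0833), and when only the compared groups were fitted (0.0526). The log2 fold change lay between -3.26 and -2.41 in those fits that left out 1 library, and the call averaged over diets was kept in all 12 of them.

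Between diets, the 3 wild-type HFD livers had 5.37, 7.65 and 4.24 CPM of Mlkl, against 3.08, 3.73 and 3.01 CPM in the 3 wild-type ND livers. The 3 HFD livers were above the 3 ND livers, but the log2 fold change of 0.82 ± 0.32 was not called (adjusted p = 0.166, 95% interval 0.13 to 1.51). Over the 6 wild-type livers, the genes whose log2 CPM ran most like that of Mlkl among 9353 genes compared were Gusb (Pearson r = 0.999), Hfe2 (0.997) and Lrba (0.996). Gusb encodes the lysosomal enzyme beta-glucuronidase and averaged 27.5 CPM in wild-type HFD livers and 19.4 CPM in wild-type ND livers. Hfe2 encodes hemojuvelin, a coreceptor in the control of hepcidin, and averaged 80.9 CPM in wild-type HFD livers and 61.3 CPM in wild-type ND livers. With 6 points that share the same 2 diet groups, such values describe these libraries only.

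**Figure D2:**
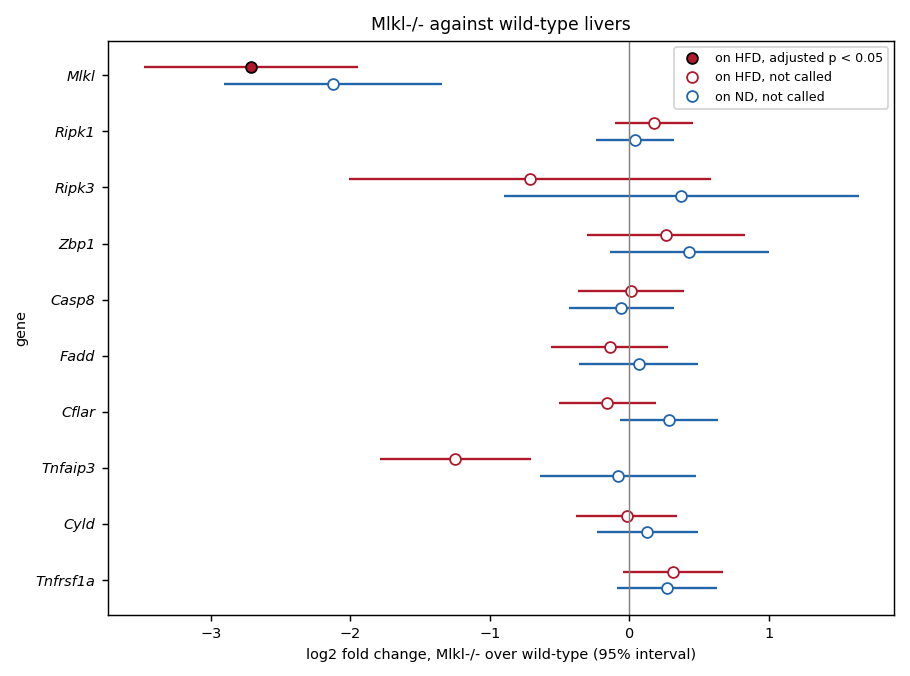
Log2 fold change of Mlkl-/- over wild-type livers (x axis) for the 10 genes (y axis), on HFD (red) and on ND (blue), with 95% intervals from the edgeR fit; filled points are called. Mlkl lies at -2.71 on HFD and -2.12 on ND, Tnfaip3 at -1.25 on HFD and -0.08 on ND, and the intervals of the other 8 genes include 0.

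Among the upstream kinases and the sensor, no change with genotype or diet was called. Ripk1 (ENSMUSG00000021408, chromosome 13), the kinase that joins the receptor complex to either survival or death, had 31.6, 32.4 and 32.1 CPM in Mlkl-/- HFD livers, against 30.5, 27.4 and 27.1 CPM in wild-type HFD livers. The 3 Mlkl-/- livers were above the 3 wild-type livers, but the log2 fold change of 0.18 was not called (95% interval -0.10 to 0.46, adjusted p = 0.53). On ND, Ripk1 averaged 33.1 ± 4.78 CPM in Mlkl-/- livers and 32.1 ± 1.94 CPM in wild-type livers. Its highest library was 1.35 times its lowest, the narrowest range of the 10 genes. The annotated Ripk1 exons share 511 bases with the pseudogene Gm17084 on the same strand and 241 bases with Serpinb6a on the opposite strand, but none within their last 1000 bases.

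Ripk3 (ENSMUSG00000022221, chromosome 14), the kinase that activates MLKL, was barely detected, with 6 to 35 counts in a library. It had 13, 6 and 18 counts in Mlkl-/- HFD livers, against 29, 35 and 10 in wild-type HFD livers. On ND it had 9, 34 and 21 counts in Mlkl-/- livers, against 30, 13 and 8 in wild-type livers. The groups overlapped in every comparison. For the lowest library, the exact 95% Poisson interval of its 6 counts ran from 2.2 to 13.1, for counting error alone. The log2 fold change of Mlkl-/- over wild-type was -0.71 on HFD with a 95% interval of -2.01 to 0.58, and 0.37 on ND with an interval of -0.90 to 1.64. The spread between animals went beyond counting error, since the exact 95% Poisson intervals of wild-type ND replicate 1 (30 counts, 20.2 to 42.8) and replicate 3 (8 counts, 3.45 to 15.8) do not overlap.

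Zbp1 (ENSMUSG00000027514, chromosome 2), itself an interferon-induced gene, averaged 5.44 ± 1.47 CPM in Mlkl-/- HFD livers and 4.55 ± 1.15 CPM in wild-type HFD livers. On ND it averaged 5.07 ± 1.21 CPM in Mlkl-/- livers and 3.76 ± 0.70 CPM in wild-type livers. Both Mlkl-/- groups had the higher mean, but the libraries overlapped on each diet. The averaged log2 fold change of 0.34 was not called (95% interval -0.06 to 0.75, adjusted p = 0.535).

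The caspase-8 complex that restrains RIPK1 and RIPK3 also gave no call in the fit used here. Casp8 (ENSMUSG00000026029, chromosome 1) had 37.5, 23 and 23.8 CPM in Mlkl-/- HFD livers, against 29.7, 26.5 and 27.6 CPM in wild-type HFD livers. Mlkl-/- HFD replicate 1 had the highest Casp8 level of all 12 libraries, and the other 2 of its group were below all 3 wild-type HFD libraries. The log2 fold change on HFD was 0.01, with a 95% interval of -0.37 to 0.39.

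Fadd (ENSMUSG00000031077, chromosome 7), the adaptor that brings caspase-8 to the receptor, had 12.0, 10.7 and 11.2 CPM in wild-type HFD livers, against 8.33, 8.74 and 6.88 CPM in wild-type ND livers. In Mlkl-/- livers it had 9.97, 8.66 and 12.2 CPM on HFD, against 10.8, 6.51 and 7.82 CPM on ND. The diets did not overlap in wild-type livers and overlapped in Mlkl-/- livers. The log2 fold change of HFD over ND was 0.30 in Mlkl-/- livers and 0.51 in wild-type livers, and neither was called (adjusted p = 0.533 in Mlkl-/- and 0.162 in wild-type). The diet effect averaged over genotypes, 0.40, had an adjusted p of 0.0972, and it was called without Mlkl-/- ND replicate 1 (0.0177) and with library sizes that were not scaled by TMM (0.0302). Fadd shares 239 exon bases with its antisense gene Faddos, which had 28 to 74 counts, and the strand setting of the counting is unknown, so reads of both genes cannot be told apart there, though none of these bases lie in the last 1000 of the Fadd exons.

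Cflar (ENSMUSG00000026031, chromosome 1), which encodes the caspase-8 partner cFLIP, had 74.4, 71.8 and 88.2 CPM in Mlkl-/- HFD livers, against 80.9, 123 and 112 CPM in Mlkl-/- ND livers. In Mlkl-/- mice, 2 of the 3 ND livers were above all HFD livers, and Mlkl-/- ND replicate 1 lay among them. The log2 fold change of HFD over ND was -0.43 ± 0.16 in Mlkl-/- livers (adjusted p = 0.266) and 0.01 in wild-type livers (adjusted p = 0.981). Without Mlkl-/- ND replicate 1, which is the ND library with the higher level at the 8 loci, the value in Mlkl-/- livers was called (adjusted p = 0.0449). The difference between the genotypes' diet effects was -0.44 for Cflar and was not called (95% interval -0.94 to 0.05, adjusted p = 0.528).

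At the receptor, Tnfrsf1a (ENSMUSG00000030341, chromosome 6), which encodes TNFR1, had 94.5, 68.6 and 99.9 CPM in Mlkl-/- HFD livers, against 65.6, 80.1 and 66.3 CPM in wild-type HFD livers. On ND it had 85.2, 59.2 and 77.6 CPM in Mlkl-/- livers, against 66.7, 57.1 and 60.6 CPM in wild-type livers. In each diet 2 of the 3 Mlkl-/- livers were above every wild-type liver, and the third lay among them. The averaged log2 fold change of 0.29 ± 0.12 was not called (95% interval 0.03 to 0.54, adjusted p = 0.418). Cyld (ENSMUSG00000036712), a deubiquitinase that removes linear and lysine-63 chains from RIPK1, is on chromosome 8 like Mlkl, 22.56 Mb away. It averaged 24.3 ± 2.69 CPM in Mlkl-/- HFD livers and 24.7 ± 0.66 CPM in wild-type HFD livers, and 24.2 ± 4.5 CPM in Mlkl-/- ND livers and 22.1 ± 4.58 CPM in wild-type ND livers. None of its comparisons was called, and its log2 fold change between genotypes on HFD was -0.02 (95% interval -0.38 to 0.34).

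Tnfaip3 (ENSMUSG00000019850, mm10 chromosome 10, 19000910 to 19015657, minus strand) was the only member called higher with HFD in wild-type livers. It encodes A20, which edits ubiquitin on RIPK1, limits NF-kB signalling and is itself a target gene of NF-kB. Its counts were 47, 70 and 56 in Mlkl-/- HFD livers, against 173, 239 and 95 in wild-type HFD livers. On ND they were 53, 51 and 57 in Mlkl-/- livers, against 68, 51 and 65 in wild-type livers. As CPM, the 3 wild-type HFD livers (6.93, 7.25 and 4.58) were above the other 9 livers (2.13 to 3.37), whose 3 groups overlapped.

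With HFD, Tnfaip3 rose in wild-type livers, averaging 6.25 ± 1.46 CPM on HFD and 2.51 ± 0.39 CPM on ND (SD, n = 3 each), a log2 fold change of 1.32 ± 0.25 (adjusted p = 0.0142, 95% interval 0.78 to 1.86). The Mlkl-/- livers averaged 2.64 ± 0.63 CPM on HFD and 2.37 ± 0.20 CPM on ND, a log2 fold change of 0.15 that was not called (95% interval -0.40 to 0.71, adjusted p = 0.831). Averaged over genotypes the diet effect was 0.74 (adjusted p = 0.025), called along with 7.19% of all genes (3.57% higher, 3.62% lower). Between genotypes on HFD, the Mlkl-/- and wild-type livers did not overlap, and the log2 fold change was -1.25 ± 0.25 with an unadjusted p of 0.000189 and an adjusted p of 0.0948. On ND the genotypes differed by -0.08 (95% interval -0.64 to 0.47).

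The difference between the diet effects of the 2 genotypes was tested directly. For Tnfaip3 the diet effect in Mlkl-/- livers minus that in wild-type livers was -1.17 ± 0.36 on the log2 scale, with a 95% interval of -1.94 to -0.39, an unadjusted p of 0.00585 and an adjusted p of 0.392. EdgeR called 0 of the 10 genes and 0% of all genes for this interaction, with 1 of the 10 and 10.4% of all genes at an unadjusted p under 0.05. DESeq2 called 0 of the 10 and 58 of all genes, and limma-voom called 0 of either. The interval for this gene alone excludes 0, whereas the p adjusted over all genes is not past the threshold.

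**Figure D3:**
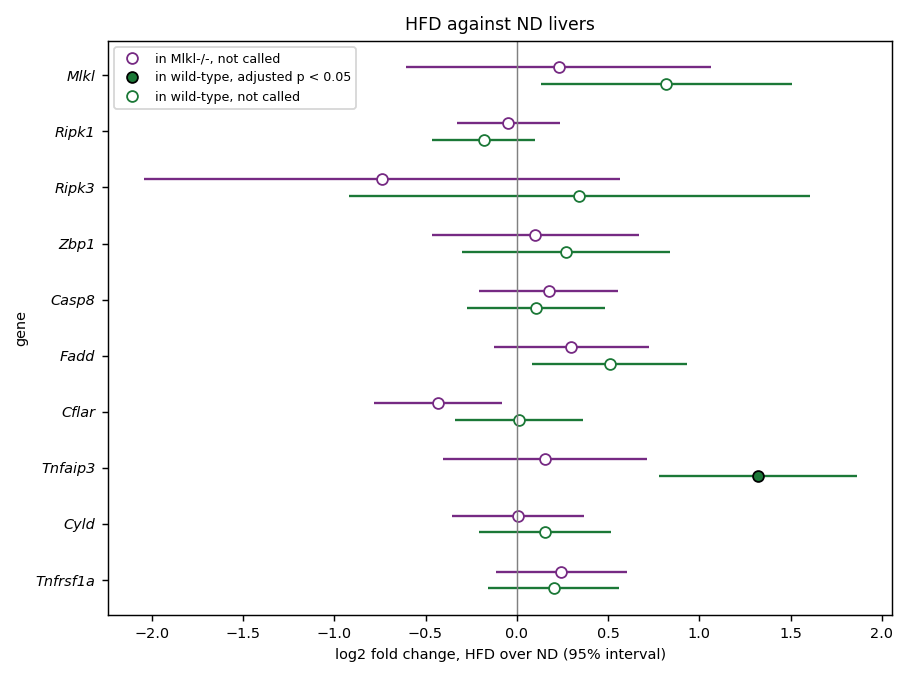
Log2 fold change of HFD over ND (x axis) for the 10 genes (y axis) in Mlkl-/- (purple) and wild-type (green) livers, with 95% intervals from the edgeR fit; filled points are called. Tnfaip3 lies at 0.15 in Mlkl-/- and 1.32 in wild-type livers, and it is the single called value.

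The Tnfaip3 call rested in part on single libraries. Its diet effect in wild-type livers was not called without wild-type HFD replicate 2 (log2 fold change 1.20, adjusted p = 0.0801), without wild-type ND replicate 2 (1.34, 0.0641) or without wild-type ND replicate 3 (1.22, 0.0713). With the level at the 8 loci as a further term it was 1.34 (adjusted p = 0.0505), and wild-type HFD replicates 2 and 3 have the higher level there. Wild-type HFD replicate 1, which has the lower level like the wild-type ND libraries, had 6.93 CPM. Among the libraries of the lower title code, the diet difference in wild-type livers was 1.10 on the log2(CPM + 1) scale (1 HFD library minus the mean of 2 ND libraries), and among those of the higher code it was 1.12 (mean of 2 minus 1). The genotype difference on HFD was -1.08 within the lower code (mean of 2 Mlkl-/- libraries minus 1 wild-type library) and -1.04 within the higher one (1 minus mean of 2).

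Summed markers of macrophages, endothelial cells, stellate cells, cholangiocytes and adipocytes had, like Tnfaip3, their highest group median in wild-type HFD livers. Those of lymphocytes, neutrophils and hepatocytes did not. The 18 markers of Kupffer cells and macrophages summed to 220, 226 and 393 CPM in Mlkl-/- HFD livers, against 624, 632 and 398 CPM in wild-type HFD livers, with 322, 442 and 526 CPM in Mlkl-/- ND livers and 297 to 366 CPM in wild-type ND livers. In the fit, 0 of the 18 were called between genotypes on HFD by edgeR, with 15 lower at an unadjusted p under 0.05 (15.5% of all genes in either direction) and a median log2 fold change of -1.05, against a median of 0.01 over all genes tested. Between diets, 3 of the 18 were called higher in wild-type livers, against 2.02% of all genes. Among Mlkl-/- ND livers, replicates 1, 2 and 3, with 322, 442 and 526 CPM of macrophage markers, had 2.60, 2.26 and 2.25 CPM of Tnfaip3. These Tnfaip3 values rest on 53, 51 and 57 counts. Clec4f, a lectin of Kupffer cells and 1 of the 2 most abundant of the 18, averaged 47.5 ± 16.3 CPM in Mlkl-/- HFD livers and 88.5 ± 17.7 CPM in wild-type HFD livers, and 61.3 ± 18 CPM in Mlkl-/- ND livers and 58.8 ± 8.58 CPM in wild-type ND livers. Mpeg1, the other, averaged 54.0 ± 31.2 CPM in Mlkl-/- HFD livers and 86.5 ± 24.0 CPM in wild-type HFD livers, and these libraries overlapped. On ND, Mpeg1 averaged 88.5 ± 42.7 CPM in Mlkl-/- livers, its highest group mean, and 56.3 ± 3.14 CPM in wild-type livers.

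The 10 endothelial markers summed to 136, 140 and 173 CPM in Mlkl-/- HFD livers, against 400, 301 and 261 CPM in wild-type HFD livers, with 173 to 268 CPM in Mlkl-/- ND livers and 198 to 289 CPM in wild-type ND livers. Of the 10, 2 were called lower in Mlkl-/- than in wild-type livers on HFD, against 0.0221% of all genes. Among them was Fcgr2b, an Fc receptor of sinusoidal endothelium, with 19.5 ± 2.28 CPM in Mlkl-/- HFD livers and 45.3 ± 9.89 CPM in wild-type HFD livers (log2 fold change -1.21, adjusted p = 0.0353). The 10 stellate cell and fibroblast markers summed to 178, 210 and 219 CPM in Mlkl-/- HFD livers, against 450, 378 and 217 CPM in wild-type HFD livers, with 218 to 263 CPM in Mlkl-/- ND livers and 224 to 278 CPM in wild-type ND livers. No macrophage, endothelial or stellate cell marker was at 0 in any library. The 9 tested markers of T, NK and B cells had a median log2 fold change of 0.27 for Mlkl-/- over wild-type on HFD (5 of 9 positive) and of -0.33 for HFD over ND in wild-type livers (1 of 9 positive). The 3 tested neutrophil markers had medians of -0.22 and 0.39. In these comparisons edgeR called 0 of either list, with 0 at an unadjusted p under 0.05. All 12 lymphocyte markers summed to 4.34 to 10.9 CPM in Mlkl-/- HFD livers and to 4.77 to 8.07 CPM in wild-type HFD livers, and Cd3d, Gzma and Klrb1c were at 0 in some libraries. The 6 cholangiocyte markers summed to 23.1 to 33.3 CPM in Mlkl-/- HFD livers and to 25.2 to 125 CPM in wild-type HFD livers. Of the 3 wild-type HFD sums, 65.4, 125 and 25.2 CPM, Spp1 made up 59.3, 117 and 19.8 CPM, and Spp1 is also in the macrophage list. Sox9 was lower on HFD than on ND in wild-type livers (log2 fold change -0.74, not called). The 7 adipocyte markers summed to 493 to 703 CPM in Mlkl-/- HFD livers and to 640 to 655 CPM in wild-type HFD livers. Adipor2 made up most of these sums, with 495 ± 118 CPM in Mlkl-/- HFD livers and 577 ± 2.28 CPM in wild-type HFD livers. By gene, unlike Tnfaip3, the 7 had the larger median log2 fold change of HFD over ND in Mlkl-/- livers. It was 2.46 there and 1.0 in wild-type livers, with 0 of the 7 called by edgeR in either. Wild-type HFD replicate 3, with the lowest Tnfaip3 level of its group, also had the lowest macrophage, endothelial and stellate cell sums of its group. Without that library, the genotype difference in Tnfaip3 on HFD was -1.43 and called (adjusted p = 0.0291). The part of these cells in the Tnfaip3 result was not tested. Summed hepatocyte markers were at 81500 to 107000 CPM in Mlkl-/- HFD livers and at 61600 to 85700 CPM in wild-type HFD livers.

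**Figure D4:**
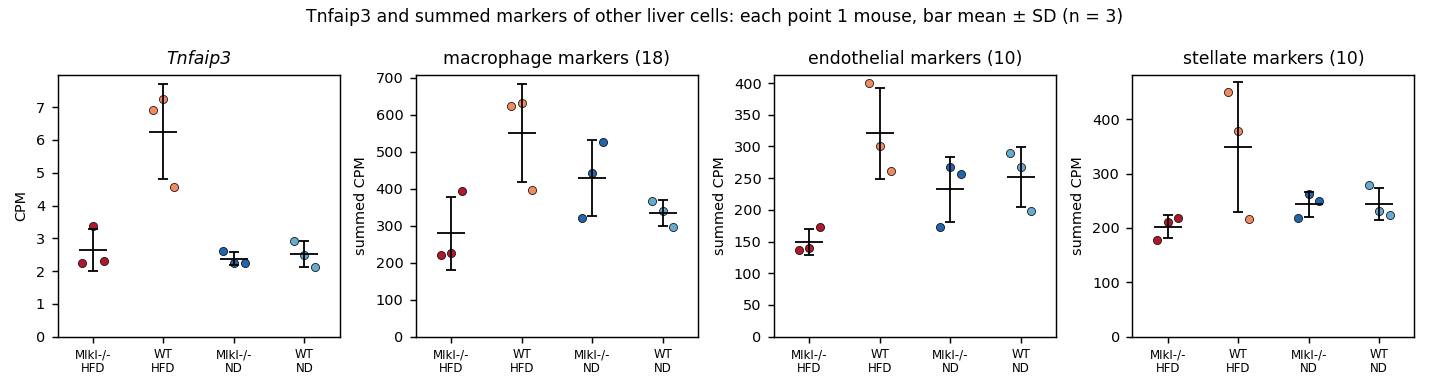
Tnfaip3 (CPM) and the summed CPM of macrophage, endothelial and stellate cell markers (y axes, from 0) in each of the 12 livers, by group on the x axis; a point is 1 mouse and the bars are the mean and SD of 3. The endothelial sum is 136 to 173 CPM in Mlkl-/- HFD livers and 261 to 400 CPM in wild-type HFD livers, and wild-type HFD replicate 3 is the lowest point of its group in all 4 panels.

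Over all 12 libraries, the genes whose log2 CPM ran most like that of Tnfaip3 among 9353 genes compared were Tgfbi (Pearson r = 0.924), Lum (0.9) and Emilin1 (0.898), all of which encode proteins of the extracellular matrix. Tgfbi averaged 24.2 CPM in Mlkl-/- HFD livers and 45.3 CPM in wild-type HFD livers, with 22.3 CPM in Mlkl-/- ND livers and 26.7 CPM in wild-type ND livers. Lum, which encodes the collagen-binding proteoglycan lumican, averaged 4.84 CPM in Mlkl-/- HFD livers and 9.73 CPM in wild-type HFD livers. These points share libraries, groups and the cell makeup of each liver.

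The promoters of the 3 genes whose wild-type HFD and ND libraries did not overlap in the higher direction (Tnfaip3, Mlkl and Fadd) are printed for description. Each is the 300 bases from 250 before to 50 after the RefSeq start on the strand of the gene, in GRCm38.p6, and capitals mark GGAANNNCC on either strand, a short spelling of the kappa B motif that NF-kB binds, chosen after the promoters had been seen.
Tnfaip3, chr10:19015361-19015660, minus strand: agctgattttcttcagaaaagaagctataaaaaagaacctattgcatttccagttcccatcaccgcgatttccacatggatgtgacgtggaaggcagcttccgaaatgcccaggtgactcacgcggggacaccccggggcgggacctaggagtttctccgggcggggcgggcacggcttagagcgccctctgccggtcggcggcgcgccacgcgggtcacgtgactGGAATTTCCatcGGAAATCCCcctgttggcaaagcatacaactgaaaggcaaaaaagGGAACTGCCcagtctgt
Mlkl, chr8:111338156-111338455, minus strand: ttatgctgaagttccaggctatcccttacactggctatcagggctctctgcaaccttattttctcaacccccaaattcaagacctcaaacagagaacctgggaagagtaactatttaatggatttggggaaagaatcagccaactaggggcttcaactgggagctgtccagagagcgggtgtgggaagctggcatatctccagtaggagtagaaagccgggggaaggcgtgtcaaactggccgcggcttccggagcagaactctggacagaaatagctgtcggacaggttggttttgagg
Fadd, chr7:144582392-144582691, minus strand: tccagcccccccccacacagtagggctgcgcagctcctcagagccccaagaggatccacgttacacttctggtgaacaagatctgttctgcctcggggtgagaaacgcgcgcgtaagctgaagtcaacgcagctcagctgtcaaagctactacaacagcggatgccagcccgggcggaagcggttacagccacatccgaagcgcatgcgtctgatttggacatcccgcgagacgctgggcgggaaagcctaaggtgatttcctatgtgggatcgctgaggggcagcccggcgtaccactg
The Tnfaip3 window held these letters at 3 places. The first, GGAATTTCC, starts 24 bases before the RefSeq start and reads as a match on both strands, the second, GGAAATCCC, starts 12 bases before it, and the third, GGAACTGCC, starts 33 bases after it. Of 32851 mouse promoters of the same length, 18.5% held at least 1 match and 2.16% held 2 or more. The letters are not in the Mlkl and Fadd windows. RefSeq promoters were found for 9 of the 10 genes, Zbp1 being the one without, and a single match also stood in the windows of Cyld and Tnfrsf1a and in a further start of Tnfaip3. A match describes letters and does not show that a factor binds, and a missing match does not show that none binds. Because the letters were chosen after the promoters had been seen, these shares are no test of Tnfaip3. Whether the letters bear on its RNA values was not tested.

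The 10 genes did not move as a block. In wild-type livers, HFD over ND was positive for 9 of the 10, with a median log2 fold change of 0.24 (0.20 without Mlkl), against -0.01 over all genes tested. In Mlkl-/- livers it was positive for 7 of the 10, with a median of 0.13. Between genotypes on HFD, 4 of the 10 were positive and the median was -0.08, against 0.01 over all genes. Across the 45 pairs of the 10 genes, the Pearson correlation of their deviations from the group means over the 12 libraries ran from -0.70 to 0.69 with a median of 0.03, and 25 of the 45 were positive. These deviations leave out the group differences, so they do not show whether the genes moved together with diet or genotype. The comparisons of diets and genotypes share libraries, so their medians are not independent of each other.

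Beside the 10 genes, 6 lists of other genes of the pathway were followed. Of 16 tested death ligands, receptors and receptor adaptors, 1 was called higher with HFD in wild-type livers, against 2.02% of all genes. This was Tnfsf10, which encodes the death ligand TRAIL, with 9.03 ± 2.2 CPM in wild-type HFD livers and 4.57 ± 0.54 CPM in wild-type ND livers (log2 fold change 0.98, adjusted p = 0.0377). Tnfsf10 in Mlkl-/- livers was at 5.09 ± 1.22 CPM on HFD and 4.74 ± 1.25 CPM on ND. The Tnfsf10 call was kept in 5 of the 12 fits that left out 1 library each, and it was lost with the title code (adjusted p = 0.05003) or the level at the 8 loci (0.05038) as a term. For the list, the 16 genes had a median of 0.27 in wild-type livers and 0.03 in Mlkl-/- livers. The most abundant of the list, the interferon receptor subunit Ifnar2 and the adaptor Myd88, were not called. Ifnar2 averaged 52.1 ± 5.44 CPM in Mlkl-/- HFD livers and 42.0 ± 3.34 CPM in wild-type HFD livers, and Myd88 averaged 36.1 ± 6.06 CPM in Mlkl-/- HFD livers and 36.7 ± 4.79 CPM in wild-type HFD livers.

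Of 27 genes of the TNF receptor complex and its ubiquitin editors, edgeR called 1, for the diet effect averaged over genotypes. It was lower, against 7.19% of all genes called in either direction and 3.62% called lower. Ikbkg, which encodes the NF-kB scaffold NEMO, fell with HFD, with 50.4 ± 5.86 CPM on HFD and 75.5 ± 19 CPM on ND in Mlkl-/- livers, and 60.5 ± 5.3 CPM on HFD and 88.1 ± 27.3 CPM on ND in wild-type livers (averaged log2 fold change -0.56, adjusted p = 0.0367). The call was kept in 2 of 12 fits that left out a library. Tax1bp1, an A20 adaptor, averaged 153 ± 7.48 CPM in Mlkl-/- HFD livers and 155 ± 5.06 CPM in wild-type HFD livers and was not called, and neither was the kinase gene Chuk, with 143 ± 3.06 CPM in Mlkl-/- HFD livers and 140 ± 16.6 CPM in wild-type HFD livers.

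Of 22 tested MLKL partners, kinase chaperones and membrane repair genes, edgeR called 0 in any of the 7 comparisons, against 0% to 7.19% of all genes. At an unadjusted p under 0.05 there were 0 to 5 in each direction, against 5.51% to 22% of all genes in either direction. The 5 were higher with HFD in wild-type livers, where 20.5% of all genes were under 0.05 in either direction. DESeq2 called 2 between genotypes on HFD (398 of all genes) and 1 for the averaged diet effect (1947 of all genes), and limma-voom called 0. The chaperone gene Hsp90ab1 averaged 949 ± 145 CPM in Mlkl-/- HFD livers and 833 ± 72.1 CPM in wild-type HFD livers, with 698 ± 123 CPM in Mlkl-/- ND livers and 694 ± 73 CPM in wild-type ND livers. Of 15 caspase-8 substrates and downstream genes, 2 were called for the averaged diet effect, against 7.19% of all genes. Among them Gsdmd, the pore protein of pyroptosis, fell with HFD by 0.37 on the log2 scale (adjusted p = 0.0497), but this call was kept in 0 of 12 fits that left out a library.

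NF-kB targets and feedback genes, the class to which Tnfaip3 belongs, were set beside all genes tested. Of 24, 1 was called higher with HFD in wild-type livers (2.02% of all genes) and 3 were called higher for the averaged diet effect (3.57% of all genes). In Mlkl-/- livers edgeR called 0, against 0.21% of all genes called higher, DESeq2 called 1 and limma-voom 0. There 3 were higher at an unadjusted p under 0.05, against 13.6% of all genes in either direction. The chemokine gene Ccl2 averaged 0.50 ± 0.35 CPM in Mlkl-/- HFD livers and 1.52 ± 1.1 CPM in wild-type HFD livers, with 0.51 ± 0.38 CPM in Mlkl-/- ND livers and 0.17 ± 0.11 CPM in wild-type ND livers. Its diet effect in wild-type livers was 3.13 (adjusted p = 0.0471), from few counts, and was kept in 4 of 12 fits that left out a library. It was not called with the title code as a term (adjusted p = 0.0612), with the level at the 8 loci as a term (0.09) or with limma-voom (0.105). Relb, a subunit of the alternative NF-kB pathway, rose with HFD, with 2.5 ± 0.71 CPM on HFD and 0.76 ± 0.31 CPM on ND in Mlkl-/- livers, and 3.05 ± 1.56 CPM on HFD and 1.42 ± 0.27 CPM on ND in wild-type livers (averaged log2 fold change 1.41, adjusted p = 0.0114). Nfkb2, the partner of Relb, had 8.48 ± 1.06 CPM on HFD and 5.86 ± 1.63 CPM on ND in Mlkl-/- livers, and 10.9 ± 2.64 CPM on HFD and 6.15 ± 1.5 CPM on ND in wild-type livers (0.68, adjusted p = 0.0307). Cxcl10, a chemokine gene induced by interferon as well as NF-kB, had an averaged diet effect of 0.87 (adjusted p = 0.0384), kept in 2 of 12 fits that left out a library. The Nfkb2 call was kept in 7 of these fits and the Relb call in 12. With the level at the 8 loci as a term, none of the 3 was called (adjusted p = 0.0917 for Relb, 0.139 for Nfkb2 and 0.126 for Cxcl10). For the interaction edgeR called 0 of the 24, with 3 at an unadjusted p under 0.05 (10.4% of all genes in either direction), and DESeq2 and limma-voom called 0.

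Interferon-stimulated genes, the class to which Zbp1 belongs, had the most calls of the 6 lists. Of 32 tested, 9 were called higher with HFD in wild-type livers and 0 lower (2.02% and 2.21% of all genes), 0 in Mlkl-/- livers (0.359% of all genes in either direction), and 8 higher for the averaged diet effect (3.57% of all genes). Among Mlkl-/- livers 6 were higher at an unadjusted p under 0.05 (13.6% of all genes in either direction), DESeq2 called 1 and limma-voom 0. Usp18, which removes the ubiquitin-like ISG15, averaged 7.66 ± 2.66 CPM on HFD and 4.39 ± 0.48 CPM on ND in Mlkl-/- livers, and 10.0 ± 4.21 CPM on HFD and 2.43 ± 0.33 CPM on ND in wild-type livers (diet effect in wild-type 2.05, adjusted p = 0.00538). Gbp3, a guanylate-binding protein gene, averaged 5.01 ± 0.56 CPM on HFD and 4.82 ± 0.94 CPM on ND in Mlkl-/- livers, and 10.1 ± 1.98 CPM on HFD and 3.88 ± 0.58 CPM on ND in wild-type livers (1.39, adjusted p = 0.00615). The antiviral genes Ifit2 (1.62, adjusted p = 0.0164) and Oas1a (1.48, adjusted p = 0.0201) also rose in wild-type livers. Of the 12 fits that left out a library, 12 kept the calls of Usp18 and Gbp3, 8 that of Ifit2 and 7 that of Oas1a. Without wild-type ND replicate 1 the count in wild-type livers was 3, and without Mlkl-/- ND replicate 1 it was 13. Zbp1 itself had a diet effect of 0.10 in Mlkl-/- livers and 0.27 in wild-type livers, neither called. For the interaction edgeR called 0 of the 32, with 10 lower at an unadjusted p under 0.05 (10.4% of all genes in either direction), DESeq2 called 3 and limma-voom called 0.

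**Figure D5:**
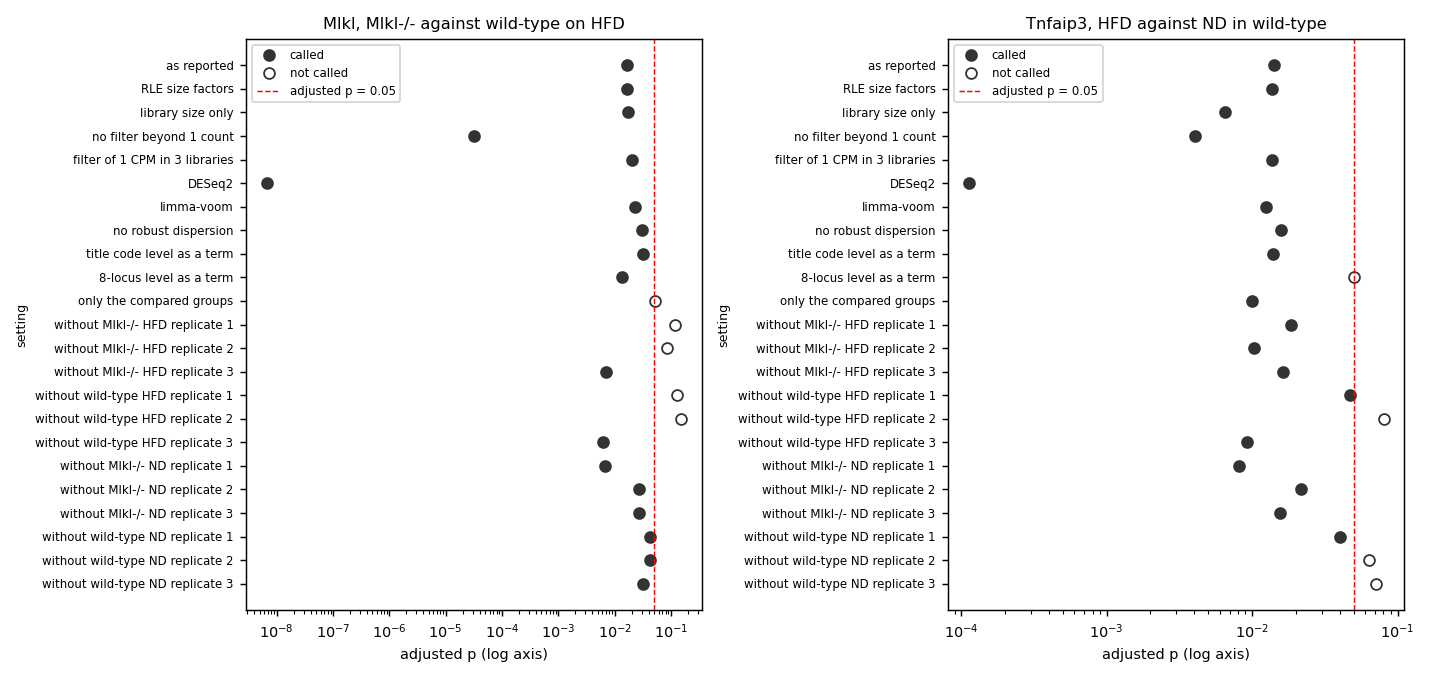
Adjusted p (x axis, log scale) of Mlkl between Mlkl-/- and wild-type livers on HFD (left) and of Tnfaip3 between HFD and ND in wild-type livers (right), as reported and under each alternative (y axis); filled points are called and the dashed line is 0.05. Mlkl is not called in 5 alternatives and Tnfaip3 is not called in 4, most of them fits that leave out 1 library.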

How the data were processed

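The authors deposited whole-number raw counts per Ensembl gene and library, with no normalization, for 12 liver libraries. Per the labels' protocols, RNA was extracted with Trizol and RNeasy, made into QuantSeq 3' libraries and sequenced on an Illumina NextSeq. Per the submitters' processing notes, cutadapt 1.9, HISAT2, featureCounts, limma and mm10 were used; roles, annotation, strand setting and treatment of multiply mapped reads are not stated there. Symbols for 51633 identifiers and positions came from GENCODE M21, and promoters from RefSeq.

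The genotype and diet labels gave the groups, and they number the animals separately. Genes passed filterByExpr (minimum 10 counts, 15 in total), which left 18098. One mean per group was fitted to all 12 libraries with TMM factors and robust quasi-likelihood dispersions in edgeR 4.0.16 (R 4.3.3), with 8 residual degrees of freedom, and glmQLFTest gave 7 contrasts. The Benjamini-Hochberg adjustment ran over all tested genes, and calls use 0.05. An SE is the fitted log2 fold change over the square root of its F, and 95% intervals use it with the test's degrees of freedom. The fit was run on counts simulated with its own dispersions, with known changes in the wild-type HFD libraries alone. These counts held no difference by title code or level at the 8 loci, so they check the code and not such confounding. Alternatives were RLE factors, library size only, 2 other filters, DESeq2 1.42.0, limma-voom 3.58.1, dispersions without robust estimation, the compared groups alone, the title code or the level at the 8 loci as a term, and leaving out each library.

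Named genes are the 10 members, per comparison up to 4 called genes of each pathway list with the largest change, the 2 with the highest mean CPM where a list has fewer than 2 calls, the 2 most abundant genes of a marker list, and the 3 genes averaging at least 5 CPM over all libraries most like Mlkl or a called member other than predicted genes; not all of them are printed, and 1 called gene of a pathway list is not reported here. The members and lists were chosen with earlier results of these data known. P-values set differences between group means against the spread of animals within the groups, and Poisson intervals cover counting error only. Proteins were not used here.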

Additional observations from a re-analysis of the deposited data

How the results depend on the processing

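No paired analysis was possible because the labels give no replicate numbers that groups share. The title code, which both genotypes share within a diet, was fitted as a term instead. Codes 23 and 25 were taken as lower and codes 27 and 29 as higher, a pairing across diets that the labels do not give. Each result was recomputed under 10 other settings and in 12 fits that each left out 1 library. Mlkl between genotypes averaged over diets was called in all of them that give the value. The number of the 10 genes called between genotypes on HFD was 2 (Mlkl and Tnfaip3) with library sizes without TMM, with no filter beyond 1 count and with DESeq2, 0 with only the compared groups, and 0 to 2 with 1 library left out. On ND it was 1 (Mlkl) with no filter and with DESeq2, and 0 to 1 with 1 library left out, the 1 being Mlkl without Mlkl-/- HFD replicate 3 (adjusted p = 0.0341). For the diet effect in wild-type livers it was 0 with the level at the 8 loci as a term, and 0 to 1 with 1 library left out. In Mlkl-/- livers it was 0 to 1 with 1 library left out. For the averaged diet effect it was 2 (Fadd and Tnfaip3) with library sizes without TMM, 0 with the level at the 8 loci as a term, and 0 to 2 with 1 library left out. Tnfaip3 lost that averaged call without wild-type ND replicate 2 (adjusted p = 0.0556) or 3 (0.0619), Mlkl-/- ND replicate 2 (0.0623), or wild-type HFD replicate 1 (0.0628) or 2 (0.0778). The cause of these changes was not tested.

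Library sizes without TMM moved the median log2 fold change of all genes to 0.19 for the diet effect in wild-type livers, 0.13 for the averaged diet effect and -0.16 between genotypes on HFD, against -0.01, -0.01 and 0.01 with TMM. Relative to that shift Tnfaip3, at 1.52 in wild-type livers, stayed near its value of 1.32. The share of calls that were higher in wild-type HFD livers was 83.6% without TMM and 47.8% with it. Counts over all genes moved more than those over the 10: between genotypes on HFD, 5 with edgeR, 8 with limma-voom and 398 with DESeq2; between diets in wild-type livers, 766, 831 and 1465; in Mlkl-/- livers, 65, 32 and 514; averaged over genotypes, 1302 with edgeR and 122 with the level at the 8 loci as a term. Without wild-type HFD replicate 2, 63 genes were called between diets in wild-type livers. Without wild-type HFD replicate 3, 189 were called between genotypes on HFD.

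Signs changed 82 times, 58 of them with 1 library left out, always in a value that was not called (adjusted p of 0.559 or more). With library sizes without TMM, signs changed for the genotype difference on ND, Ripk1 (-0.014), for the genotype difference on HFD, Casp8 (-0.15), for the averaged genotype difference, Ripk1 (-0.0026), Cflar (-0.045) and Cyld (-0.055), for the diet effect in wild-type livers, Ripk1 (0.013), for the diet effect in Mlkl-/- livers, Ripk1 (0.035), for the averaged diet effect, Ripk1 (0.024), for the interaction, Casp8 (-0.037) and Tnfrsf1a (-0.062). With the title code as a term, signs changed for the genotype difference on ND, Casp8 (0.015) and Tnfaip3 (0.0087), for the genotype difference on HFD, Casp8 (-0.068) and Cyld (0.064), for the diet effect in wild-type livers, Cflar (-0.094), for the interaction, Casp8 (-0.083) and Cyld (0.019). With the level at the 8 loci as a term, signs changed for the genotype difference on ND, Fadd (-0.019), for the genotype difference on HFD, Cyld (0.041), for the averaged genotype difference, Ripk3 (0.10), for the diet effect in Mlkl-/- livers, Ripk1 (0.14), for the averaged diet effect, Ripk1 (0.067) and Ripk3 (0.46). With limma-voom, the sign changed for Casp8 (-0.027) between genotypes on HFD. Where leaving out a library turned a sign, the lowest and highest values were as follows. For the genotype difference on ND, these fits gave -0.040 to 0.14 for Ripk1, -0.17 to 1.08 for Ripk3, -0.14 to 0.031 for Casp8, -0.17 to 0.22 for Fadd, -0.21 to 0.038 for Tnfaip3 and -0.020 to 0.30 for Cyld. For the genotype difference on HFD, these fits gave -0.25 to 0.13 for Casp8 and -0.077 to 0.070 for Cyld. For the averaged genotype difference, these fits gave -0.45 to 0.18 for Ripk3, -0.16 to 0.032 for Casp8, -0.16 to 0.032 for Fadd, -0.0069 to 0.13 for Cflar and -0.025 to 0.13 for Cyld. For the diet effect in wild-type livers, these fits gave -0.071 to 1.08 for Ripk3 and -0.082 to 0.12 for Cflar. For the diet effect in Mlkl-/- livers, these fits gave -0.32 to 0.56 for Mlkl, -0.13 to 0.047 for Ripk1, -0.14 to 0.32 for Zbp1, -0.091 to 0.32 for Casp8, -0.037 to 0.26 for Tnfaip3 and -0.088 to 0.17 for Cyld. For the averaged diet effect, these fits gave -0.40 to 0.18 for Ripk3. For the interaction, these fits gave -0.41 to 0.029 for Zbp1, -0.20 to 0.19 for Casp8, -0.37 to 0.014 for Fadd and -0.10 to 0.19 for Tnfrsf1a.

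Ripk3 has 6 to 35 counts a library and a spread between animals beyond counting error, and its intervals are wide. The other limits are the 3 animals per group and the confounding of the 8-locus level with diet and genotype, since all Mlkl-/- HFD libraries have the higher level and all wild-type ND libraries the lower one.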
